A study of Heliothis virescens with 2 samples.

Results

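HMG176 is a larval midgut protein known by that name from the cotton bollworm *Helicoverpa armigera*, and 2 sequence tags, Tag_3 and Tag_55, carried its name in gut libraries of the tobacco budworm *Heliothis virescens*. The members described here were these 2 tags, every tag sharing the first 24 bases of either, and every tag that differed from either at a single base between bases 5 and 26. They came to 114 of the 35963 different tags counted in the series, 75 around Tag_3 and 39 around Tag_55. The tags were picked out because their counts were high in Vip–Sel relative to Vip–Unsel, so every ratio between these libraries is given as a description, with no test.

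Vip–Sel was a subpopulation selected on Vip3Aa protoxin as first-instar larvae and resistant to it, and Vip–Unsel was the unselected, susceptible subpopulation of the same field-derived population. Guts of third-instar larvae, 25 per strain, were taken after rearing on diet without Vip3Aa, and Vip–Sel insects had been kept without selection for several generations before sampling. The 5 RNA preparations of each strain, of 5 guts each, were pooled, so that each strain was represented by 1 library of tag counts. The strain and the library cannot be told apart, no value has a replicate check, and the 95% intervals below cover counting error only. The Vip–Sel library held 1056080 counts of 27986 tags and the Vip–Unsel library 268172 counts of 13214 tags, a 3.94-fold difference in depth, so that a tag listed at 0 could still have had a share of up to 0.000284% in Vip–Sel and up to 0.00112% in Vip–Unsel, the share of 3 counts.

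The function of HMG176 is not established, and the protein is classed as unknown in the annotation of these tags. Vip3Aa is a pore-forming protein that *Bacillus thuringiensis* secretes and that acts on the midgut epithelium of caterpillars, the tissue from which HMG176 takes its description. In HT-SuperSAGE a transcript is by design counted through a 26-base tag that starts at the CATG site nearest its poly(A) tail. The tag ends where a second enzyme cut the cDNA and an adapter with degenerate end bases was joined. In a whole gut, fewer cells of a type and less RNA per cell cannot be told apart.

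The 2 tags and their most counted forms are shown because the results turn on which bases differ. All begin with the CATG site. In the end forms, the first 24 bases are in lower case and the last 2 in capitals, which mark the positions at which forms of 1 family may differ. In the last 4 lines, the capital marks the single changed base.
Tag_3 (form 1): catggcagcctagcttcgccccgcGT
Tag_3 form 2: catggcagcctagcttcgccccgcGG
Tag_3 form 3: catggcagcctagcttcgccccgcGC
Tag_3 form 4: catggcagcctagcttcgccccgcGA
Tag_55 (form 1): catgagaatgctaaaactgggtggTG
Tag_55 form 2: catgagaatgctaaaactgggtggTA
Tag_55 form 3: catgagaatgctaaaactgggtggCG
Tag_55 form 4: catgagaatgctaaaactgggtggTC
Tag_55 form 5: catgagaatgctaaaactgggtggGG
Tag_55 form 6: catgagaatgctaaaactgggtggTT
Tag_3 A7G: catggcGgcctagcttcgccccgcgt
Tag_3 G13A: catggcagcctaActtcgccccgcgt
Tag_3 T15C: catggcagcctagcCtcgccccgcgt
Tag_55 G24A: catgagaatgctaaaactgggtgAtg

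Substitutions are written with the base of Tag_3 or Tag_55 first, then the position counted from 1 at the C of CATG, then the base of the other tag. Tag_3 and Tag_55 differed from each other at 19 of the 22 bases after CATG, and neither was a form of the other. Tag_3 held 18 G or C bases (69.2%) and Tag_55 held 12 (46.2%). They were assigned to different *H. virescens* transcript contigs that had the same protein as best match. Tag_3 lay at bases 64 to 89 of Hv_Contig_40219, which is 299 bases long, with 210 bases after the tag. Tag_55 lay at bases 221 to 246 of Hv_Contig_22902, 646 bases long, with 400 bases after it. Neither tag was at the end of its contig. For tags distant from the contig end, the paper proposes inefficient cutting at CATG sites or a low frequency of such sites. It states that either could affect the profile, which was not tested here, so a tag share need not equal a transcript share. No genome was used, so chromosomal positions are not given, and whether the contigs are parts of 1 transcript or of different genes was not tested.

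Tag_3 was counted 103728 times in Vip–Sel and 1501 times in Vip–Unsel. It made up 9.82% of the Vip–Sel library (95% Clopper-Pearson interval 9.77 to 9.88) and 0.560% of the Vip–Unsel library (0.532 to 0.589). Its share was 17.5-fold higher in Vip–Sel (16.7 to 18.5), and it was the third most counted tag there and number 26 in Vip–Unsel. The gain of 9.26 percentage points was the second largest of any tag. Tag_55 was much scarcer, with 1857 counts in Vip–Sel compared with 7 in Vip–Unsel. Its share was 0.176% (0.168 to 0.184) in Vip–Sel and 0.00261% (0.00105 to 0.00538) in Vip–Unsel, and its rank was 55 in Vip–Sel against 1648 in Vip–Unsel. The ratio of 67.4 was therefore imprecise, with an interval of 32.6 to 168 that rested on the 7 counts. Counted as shares, the abundant tag gave the smaller ratio and the scarce tag the larger one, and the intervals of the ratios did not overlap.

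**Figure D1:**
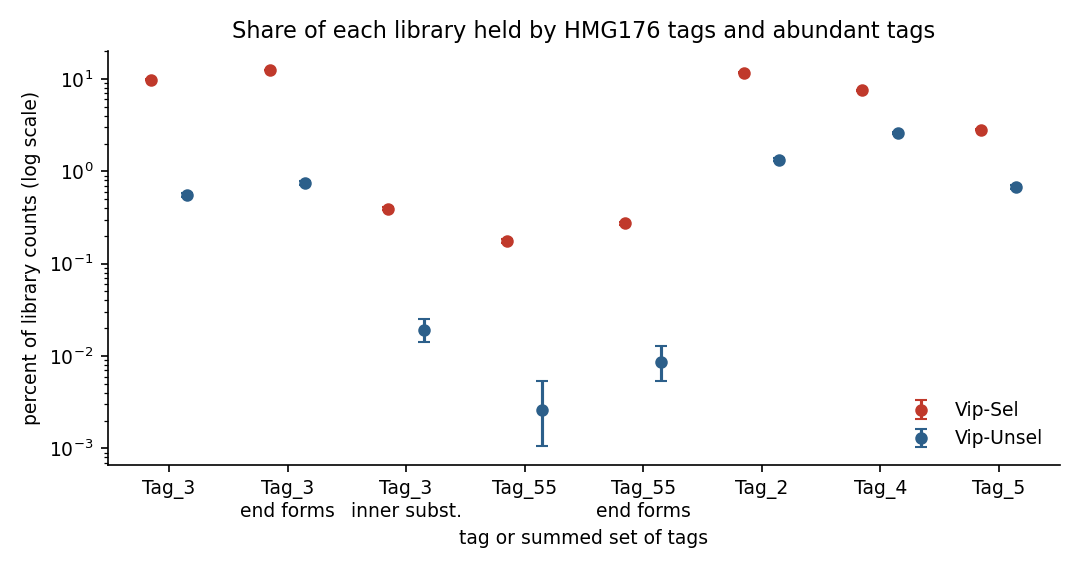
Percent of all counts (log scale) in Vip–Sel and Vip–Unsel, drawn in that order for Tag_3, Tag_55, their families and the abundant Tag_2, Tag_4 and Tag_5, with exact 95% intervals. Tag_3 stands at 9.82% in Vip–Sel compared with 0.560% in Vip–Unsel, and Tag_55 at 0.176% in Vip–Sel against 0.00261% in Vip–Unsel, where its interval is the widest.

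All 114 members together held 139828 counts, 13.2% of the Vip–Sel library, and 2091 counts, 0.780% of the Vip–Unsel library, a ratio of 17.0 (16.3 to 17.7). The named tags alone held 105585 of these counts in Vip–Sel compared with 1508 in Vip–Unsel. The other members, 34243 counts in Vip–Sel compared with 583 in Vip–Unsel, had a ratio of 14.9 (13.7 to 16.2). The paper lists the most counted of them without a contig match, so only the named tags carry the HMG176 annotation. Each of these has nearly the sequence of a named tag, so their ratio is not read as separate support for it. Every member was counted in Vip–Sel, 44 were also counted in Vip–Unsel, and 70 were counted only in the more deeply sequenced Vip–Sel library, 8 of the 114 with 1 count.

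Among the 3615 tags with at least 10 counts over the libraries, 765 had a share at least 2.5-fold higher in Vip–Sel (21.2%) and 1007 a share at most 0.4 times that in Vip–Unsel (27.9%), with 3 counts taken in place of 0. Higher calls were thus 43.2% of all calls, 71.4% where library sizes were scaled by TMM, and 13.03% at a minimum of 2 counts. TMM scaling also moved the ratio of Tag_3 to 37.5 and that of Tag_55 to 144. Of the 55 members with that many counts, 44 were past the fold in the higher direction (36 of 43 around Tag_3 and 8 of 12 around Tag_55), none was past it in the lower direction, and 11 were not past it. The median log2 ratio was 3.37 over these members and 0.02 over all 3615 tags. Nothing is read from this difference, since the members were chosen on the same contrast and share their sequences. Of the 11 members not past the fold, 10 were at 0 in Vip–Unsel and could not reach it at their count. The member nearest the limit from above was Tag_55 form 7, with 38 counts in Vip–Sel compared with 0 in Vip–Unsel, at least 3.22-fold higher, and the nearest from below was Tag_3 T15G, with 28 and 0 counts in the same order, at least 2.37-fold higher.

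Tag_3 belonged to the most counted tags. Of the 10 most abundant tags of Vip–Sel, 2 were members, Tag_3 and its form 2, which was number 8. The other 8 had ratios of 0.671 to 8.77, all below that of either member. Tag_2, assigned to a hypothetical protein, had 123487 counts in Vip–Sel compared with 3575 in Vip–Unsel, a ratio of 8.77 (8.48 to 9.07). Tag_4, named chymotrypsin, had 79387 and 6961 counts in the same order (2.90, 2.83 to 2.97), and Tag_5, named as a trypsin-like protease, had 29930 and 1821 (4.17, 3.98 to 4.38). Chymotrypsin and trypsin are serine proteases that digest dietary protein in the gut lumen. Among the 83 tags with at least 1000 counts in Vip–Sel the median ratio was 1.68, 9 (2 of them members) had a ratio above that of Tag_3, and 4 had one above that of Tag_55.

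**Figure D2:**
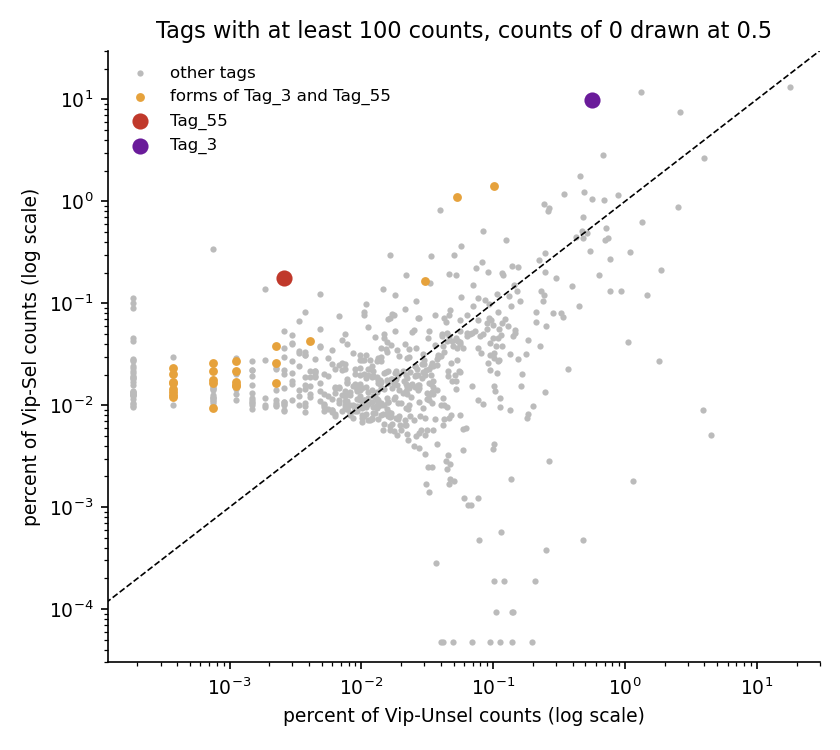
Percent of counts in Vip–Sel (vertical, log scale) against percent of counts in Vip–Unsel (horizontal, log scale) for each tag with at least 100 counts, with HMG176 members marked. Tag_3 lies among the most abundant tags of Vip–Sel at 9.82%, and Tag_55 lies at 0.176% in Vip–Sel against 0.00261% in Vip–Unsel.

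The end forms, tags with the same first 24 bases, carried most of the remaining counts. All 16 possible forms of Tag_3 were counted in Vip–Sel and 9 of them in Vip–Unsel, for 132667 counts (12.6%) and 2017 counts (0.752%), a ratio of 16.7 (16.0 to 17.5). Without Tag_3 itself, the other 15 forms had 28939 counts in Vip–Sel compared with 516 in Vip–Unsel, a ratio of 14.2 (13.1 to 15.6). Of Tag_55, 15 forms were counted in Vip–Sel against 7 in Vip–Unsel, for 2900 counts (0.275%) and 23 counts (0.00858%), a ratio of 32.0 (21.3 to 50.6). Without Tag_55 itself the ratio was 16.6 (10.1 to 29.1), from 1043 counts in Vip–Sel compared with 16 in Vip–Unsel. The ratio of 67.4 thus belonged to the single 26-base tag, and its other end forms lay close to the forms of Tag_3. Tag_55 was picked for its high ratio, which rests on 7 counts in Vip–Unsel. Nothing is therefore read from the distance between Tag_55 and its other forms. The named tag also had the higher ratio in the families of Tag_2 (8.77 for the tag against 6.66 for its other forms), Tag_4 (2.90 against 2.34) and Tag_5 (4.17 against 2.61). Those tags were listed by the paper as overexpressed from the same libraries, so their order is not read as support either.

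The forms of Tag_3 did not share a single ratio. Form 2 (T26G) had 14940 counts in Vip–Sel compared with 273 in Vip–Unsel, a ratio of 13.9 (12.3 to 15.7). Form 3 (T26C) had 11598 in Vip–Sel against 142 in Vip–Unsel, a ratio of 20.7 (17.6 to 24.6). Form 4 (T26A) had 1745 in Vip–Sel against 81 in Vip–Unsel, a ratio of only 5.47 (4.38 to 6.92). The interval of form 4 overlapped with those of neither form 2 nor form 3 nor Tag_3, so forms differing at the last base alone differed in ratio by more than the counting error. Form 5 (G25A) had 448 counts in Vip–Sel compared with 11 in Vip–Unsel, a ratio of 10.3 (5.72 to 20.9), and form 6 (G25A and T26G) had 92 in Vip–Sel against 5 in Vip–Unsel, a ratio of 4.67 (1.93 to 14.7). Form 9 was the nearest to parity, with 13 counts in Vip–Sel compared with 2 in Vip–Unsel (1.65, 0.374 to 15.1). Forms 10 to 16 had 1 to 6 counts each in Vip–Sel against none in Vip–Unsel, too few to compare.

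The forms of Tag_55 were bounded less tightly. Form 2 (G26A) had 284 counts in Vip–Sel compared with 3 in Vip–Unsel (ratio 24.04, 8.14 to 117), and form 4 (G26C) had 176 in Vip–Sel against 2 in Vip–Unsel (22.3, 6.09 to 186). The forms changed at base 25 gave lower values, but from few counts in Vip–Unsel, and their intervals overlapped with those of forms 2 and 4. Form 3 (T25C) had 177 in Vip–Sel against 3 in Vip–Unsel (14.98, 5.04 to 73.3), and form 5 (T25G) had 173 in Vip–Sel against 6 in Vip–Unsel (7.32, 3.30 to 20.2), the only form counted in both libraries whose interval did not overlap with that of Tag_55. Form 8 (T25A) had 31 in Vip–Sel against 1 in Vip–Unsel (7.87, 1.31 to 321). Form 13 (T25C and G26T) had 7 in Vip–Sel against 1 in Vip–Unsel (1.78, 0.228 to 80.1). Form 6 (G26T), with 82 counts in Vip–Sel compared with 0 in Vip–Unsel, was at least 6.94-fold higher, taking 3 counts for the Vip–Unsel library. In 7 other forms no count was found in Vip–Unsel either, and they had 2 to 38 counts each in Vip–Sel.

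**Figure D3:**
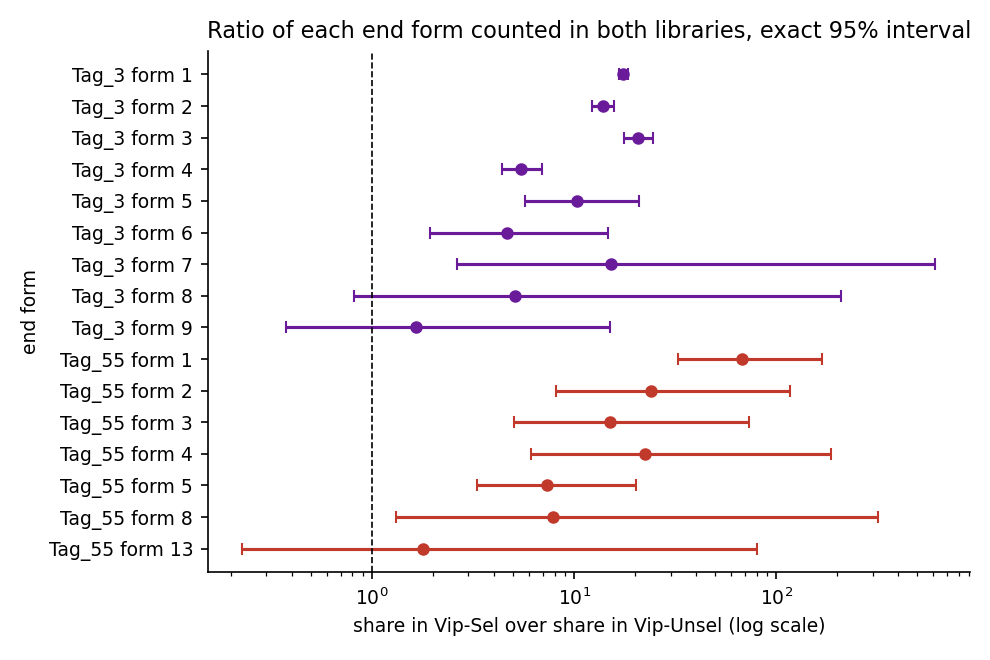
Ratio of the share in Vip–Sel to the share in Vip–Unsel (log scale) for each end form counted in both libraries, with exact 95% intervals and a dashed line at equal shares. Form 4 of Tag_3 stands at 5.47 against 17.5 for Tag_3, and the forms of Tag_55 run from 1.78 to 67.4 with wide intervals.

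How the counts divided over the end forms also differed between the libraries. Tag_3 made up 78.2% of its family in Vip–Sel (78.0 to 78.4) and 74.4% in Vip–Unsel (72.5 to 76.3), a difference of 3.77 percentage points. Form 4 made up 1.32% (1.25 to 1.38) in Vip–Sel and 4.02% (3.20 to 4.97) in Vip–Unsel. Form 2 made up 11.3% in Vip–Sel compared with 13.5% in Vip–Unsel, and form 3 made up 8.74% in Vip–Sel against 7.04% in Vip–Unsel. Tag_55 made up 64.0% of its family in Vip–Sel (62.3 to 65.8) and 30.4% in Vip–Unsel, 7 of 23 counts (13.2 to 52.9). Both named tags thus held the smaller part of their family in Vip–Unsel.

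The same was seen in most abundant families that have no HMG176 name. Of 44 other families with at least 200 counts in Vip–Unsel, led by a tag with at least 1000 counts in Vip–Sel, the main form held a lower share in Vip–Sel in 2 and in Vip–Unsel in 42, with medians of 86.9% in Vip–Sel against 77.9% in Vip–Unsel. Where the leading tags were taken from Vip–Unsel instead, it held the lower share in Vip–Unsel in 24 of 24 families. The difference ran from -7.31 to 55.9 percentage points with a median of 7.28, and was above that of Tag_3 in 36 of the 44 and above the 33.6 points of Tag_55 in 1. In the 10 other families with fewer counts in Vip–Unsel, 39 to 192, it also held the lower share in Vip–Unsel in each, by 1.75 to 65.1 points. Families with under 10 counts in Vip–Unsel were left out. The share of forms ending in A was lower in Vip–Sel in 38 of 40 other families, with medians of 4.12% in Vip–Sel against 8.61% in Vip–Unsel, beside 1.33% and 4.12% for Tag_3 in the same order. The end-form composition thus moved with the library across tags of other sequences, and its part in the ratios of the single HMG176 tags was not tested.

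**Figure D4:**
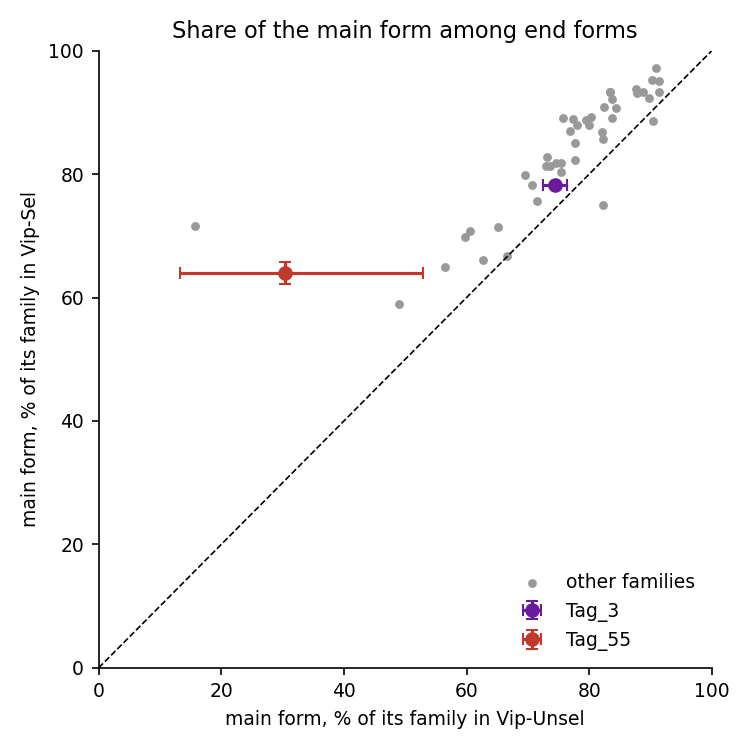
Percent of a 24-base family held by its main form in Vip–Sel (vertical) against Vip–Unsel (horizontal), with a dashed line at equal percentages. Points above the line hold the smaller share in Vip–Unsel, as do Tag_3 (78.2% in Vip–Sel, 74.4% in Vip–Unsel), Tag_55 (64.0% in Vip–Sel, 30.4% in Vip–Unsel) and 42 of 44 other families.

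The HMG176 tags differed from each other in where their end forms varied. At base 25, counts that did not carry the base of the named tag were 0.494% of the Tag_3 family and 17.3% of the Tag_55 family in Vip–Sel, beside a median of 2.16% (0.126 to 27.9) over 57 other abundant families, of which 52 were above Tag_3 and 1 was above Tag_55. At base 26 they were 21.5% for Tag_3 and 22.8% for Tag_55, against a median of 10.5%. Tag_3 was thus nearly constant at base 25 and variable at base 26, whereas Tag_55 was variable at both. In the Tag_55 family of Vip–Sel, base 25 was T in 82.7%, G in 8.14%, C in 7.90% and A in 1.24% of counts. In Vip–Unsel base 25 of this family was T in 12 of 23 counts and G in 6. The Tag_3 family in Vip–Unsel differed from the tag at base 25 in 0.992% and at base 26 in 25.0% of counts, the same order of positions as in Vip–Sel.

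Tags with 1 changed base between bases 5 and 24 were the third kind of member. Of Tag_3 there were 59, with 4159 counts in Vip–Sel compared with 51 in Vip–Unsel, a ratio of 20.7 (15.7 to 27.9), and 28 of them were counted in Vip–Unsel. Of Tag_55 there were 24, with 102 counts in Vip–Sel compared with 0 in Vip–Unsel. Relative to the named tag, they amounted to 4.01% of Tag_3 in Vip–Sel compared with 3.40% in Vip–Unsel, and to 5.49% of Tag_55 in Vip–Sel. At 7 counts of Tag_55 in Vip–Unsel, a fraction of that size was not detectable. The other abundant tags had a median of 4.34% (2.66 to 38.7) in Vip–Sel against 4.18% in Vip–Unsel, so that in this respect the HMG176 tags lay inside the range of other abundant tags.

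Most of these changed bases were transitions, exchanges of A with G or of C with T. They made up 3556 of the 4159 counts around Tag_3 in Vip–Sel (85.5%, 84.4 to 86.6) and 39 of 51 in Vip–Unsel (76.5%, 62.5 to 87.2). Around Tag_55 they made up 87 of 102 counts in Vip–Sel (85.3%, 76.9 to 91.5). The other abundant tags had medians of 85.4% in Vip–Sel against 84.9% in Vip–Unsel. All 20 possible transitions and 39 of 40 possible transversions of Tag_3 were present in Vip–Sel, and 17 and 7 of those of Tag_55 in the same order. The single most counted change around Tag_3 was A7G, with 402 counts in Vip–Sel compared with 6 in Vip–Unsel (ratio 17.0, 7.75 to 46.6), 0.388% of Tag_3 in Vip–Sel against 0.3997% in Vip–Unsel. G13A followed with 277 in Vip–Sel against 6 in Vip–Unsel (11.7, 5.32 to 32.2), and T11C with 272 and 2 in the same order (34.5, 9.47 to 287). T15C had 245 counts in Vip–Sel compared with 1 in Vip–Unsel (62.2, 11.1 to 2467), and C24T had 229 and 2 in the same order (29.1, 7.96 to 242). A12G, C9T and G18A had 228, 167 and 164 counts in Vip–Sel against 3 each in Vip–Unsel. The highest single change of 43 of 57 other abundant tags in Vip–Sel was a larger percent of its tag than A7G was of Tag_3. Every interval named here included the 17.5 of Tag_3. Around Tag_55, G24A had 17 counts, A8G had 8, T9C and A13G had 7 each, and G10A, A14G, A7G and A5G had 6 each in Vip–Sel, with 0 in Vip–Unsel.

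By position, the changed counts in Vip–Sel ran between 0.0675% of Tag_3 at base 17 and 0.478% at base 13, with a median of 0.180% over 20 bases. Those of Tag_55 ran between 0 and 0.915% at base 24, with a median of 0.323%. In Vip–Unsel those of Tag_3 ran between 0 at base 20 and 0.533% at base 7. The medians of the other abundant tags in Vip–Sel lay between 0.116% and 0.379% over the same bases. At base 25 the changed counts were 0.456% of Tag_3 and 20.5% of Tag_55 in Vip–Sel, and at base 26 they were 27.3% and 29.2% in the same order, beside medians of 2.04% and 11.3% of the other tags. Variation was thus concentrated in the last bases, with the exception of base 25 of Tag_3.

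**Figure D5:**
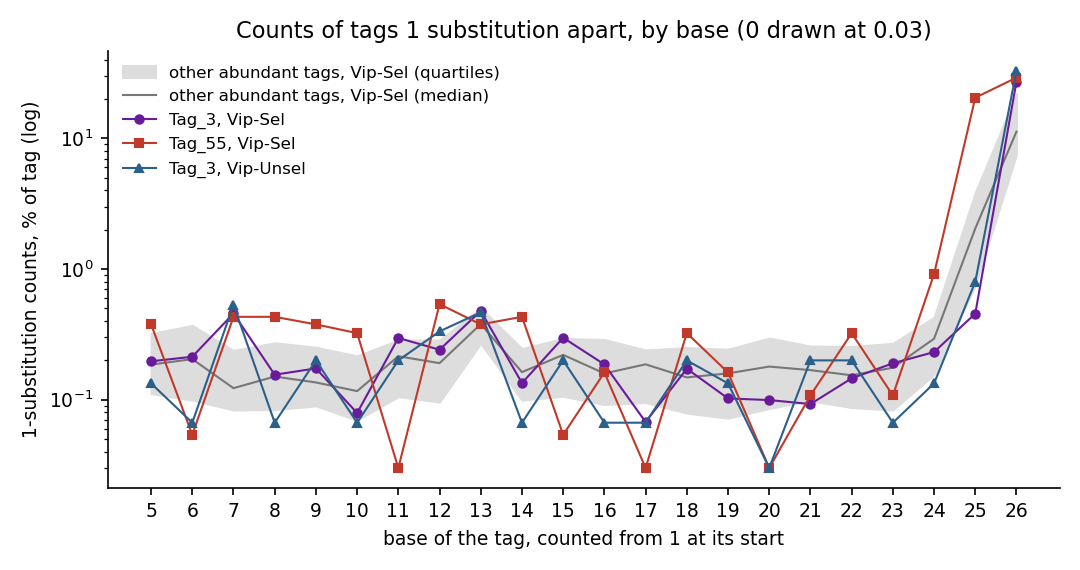
Summed counts of tags with 1 substitution as a percent of the named tag (log scale), by the base changed, for Tag_3 and Tag_55 in Vip–Sel against Tag_3 in Vip–Unsel, with the median and middle range of other abundant tags. Values between bases 5 and 24 reach at most 0.915%, and bases 25 and 26 of Tag_55 reach 20.5% and 29.2%.

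The number of forms followed the counts. Drawn down to the 2017 family counts of Vip–Unsel, the Tag_3 family of Vip–Sel would be seen in 7.14 forms on average, against the 9 seen in Vip–Unsel. For all members around Tag_3 the values were 31.4 expected for Vip–Sel at the Vip–Unsel count and 37 seen in Vip–Unsel, and for those around Tag_55 they were 6.45 and 7 in the same order. The 70 members counted in Vip–Sel only are therefore not read as forms of that strain.

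Tag_3 exceeded Tag_55 in both libraries. Within Vip–Sel it was 55.9 times as abundant (53.4 to 58.5), and within Vip–Unsel 214 times (104 to 534). Summed over end forms the factor was 45.7 (44.1 to 47.5) in Vip–Sel and 87.7 (58.3 to 139) in Vip–Unsel. The Tag_55 family made up 2.14% (2.06 to 2.22) of the counts of both families in Vip–Sel and 1.13% (0.716 to 1.69) in Vip–Unsel, intervals that did not overlap. Counts of both families were thus mostly counts of Tag_3 in either strain.

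Other midgut proteins and the tissue markers had names only where their tags were called in the annotated lists. Of the other midgut genes looked for (REPAT, fatty acid-binding proteins, peritrophins, mucins), 4 tags could be joined, 2 past the fold in the higher direction and 1 in the lower, and 1 had too few counts. REPAT39 (Tag_61), of a family known in *Spodoptera exigua* to respond to pathogens in the midgut, had 1474 counts in Vip–Sel compared with 5 in Vip–Unsel (74.9, 32.0 to 231). Fatty acid-binding protein 1 (Tag_527), an intracellular lipid carrier, had 101 and 2 in the same order (12.8, 3.46 to 107). A fatty acid-binding protein-like tag had 1 count in Vip–Sel compared with 6 in Vip–Unsel, and an intestinal mucin (Tag_2963), a component of the lining of the gut lumen, had 4 in Vip–Sel against 11 in Vip–Unsel (0.0923, 0.0214 to 0.312).

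Among the called tags that could be read and joined, 27 were named for digestive enzymes of the midgut (trypsins, chymotrypsins, carboxypeptidases, aminopeptidases, amylases). They leave out chymotrypsin-like protease C9 (Tag_4722), which the paper lists among its most underexpressed tags and which was not read from the text copy. The 27 tags are therefore not all the called ones. These 27 held 12.7% of the counts in Vip–Sel compared with 4.32% in Vip–Unsel. Because only tags called between these libraries had names, the shares of these lists do not measure tissue content. Of the 27, 16 had the higher share in Vip–Sel and 11 the lower. The sum rested mostly on Tag_4, Tag_5, Tag_15 and Tag_17, all higher in Vip–Sel. They had 79387, 29930, 9867 and 9184 of the 134041 counts in Vip–Sel. In Vip–Unsel they had 6961, 1821, 649 and 714 of the 11594 counts in the same order. Of the 2 tags named for the peritrophic matrix, the lining of the gut lumen, chitin deacetylase 5a (Tag_82) had 827 counts in Vip–Sel compared with 46 in Vip–Unsel and the mucin went the other way, for a sum of 0.0787% of Vip–Sel against 0.0213% of Vip–Unsel. Tags picked by names of muscle proteins (6) held 0.108% of Vip–Sel against 0.169% of Vip–Unsel. Myosin Vb and a non-muscle myosin heavy chain were higher in Vip–Sel, and the other 4 were lower. Under TMM scaling the order of this sum turned round, at 0.157% in Vip–Sel against 0.116% in Vip–Unsel. The non-muscle myosin held 755 of the 1138 counts of the sum in Vip–Sel and 72 of the 453 in Vip–Unsel. The turned order is therefore not read as one of muscle. Those named for cuticle proteins (4) held 0.102% of Vip–Sel against 0.259% of Vip–Unsel, with 1 of them higher in Vip–Sel, larval cuticle protein 1 (Tag_163), which had 427 counts there and 8 in Vip–Unsel. No joined tag was named for a fat body storage protein. The summed digestive enzyme share, carried mostly by these few abundant tags, was higher in Vip–Sel, as were the shares of Tag_3 and Tag_55. Single tags of each list went both ways, and their part in the HMG176 ratios was not tested.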

How the data were processed

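Whole guts of third-instar larvae of both strains were profiled by HT-SuperSAGE, with 1 library per strain. Each deposited file holds raw counts of 26-base tags that the authors extracted from sequence reads and sorted by index; the version of their scripts is not given in the sources used here. No reference genome or columns of the authors' comparisons were used. Tag names and contigs came from a text copy of the annotated lists that has reading errors and does not hold every entry. Of the entries read, 408 of 412 overexpressed and 1478 of 1495 underexpressed ones were joined by tag code, counts and sequence, and the marker and midgut gene sums rest on these.

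The counts were summed over members and divided by the library total. Shares have exact Clopper-Pearson 95% intervals and ratios of shares exact conditional binomial ones, computed with scipy 1.17.1 in Python 3.11.15. A count of 0 was replaced by 3 counts only for the fold rule and for ratios said to take 3 counts, which are not exact 95% limits. A fold of 2.5 or 0.4 was applied to tags with at least 10 counts. No p-value is given, since each strain had 1 library. The code for ratios and counts past the fold was tested on simulated data.

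The members and lists were chosen with earlier results of these data known. Named here are Tag_3, Tag_55, end forms holding at least 1% of a family in either library, the 5 substitution tags with most counts per library, and for comparison the 10 most abundant tags of Vip–Sel with Tag_2, Tag_4 and Tag_5. Forms outside this rule were named after their values were seen. Alternatives were other library totals, scaling by TMM (edgeR 4.0.16, R 4.3.3), other count minimums, 1 count in place of 0, other sets of forms and the study's fold rule with its P value.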

Additional observations from a re-analysis of the deposited data

How the results depend on the processing

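None of 42 alternatives reversed a share ratio, and 23 stayed within the counting interval. The range was 14.2 to 144. With totals without the 10 most abundant tags, the ratio was 21.9 for Tag_3, 20.9 for its 24-base family, 21.0 for Tag_3 with its 1-substitution tags and 22.2 for Tag_3 and Tag_55 together. With totals without HMG176 tags these were 20.1, 19.1, 19.3 and 20.3 in the same order, and with TMM-scaled library sizes 37.5, 35.6, 36.0 and 37.9. With TMM Tag_55 was 144, its family 68.3 and Tag_55 with its 1-substitution tags 71.0. Without the named tag itself, the ratio was 14.2 for the Tag_3 family, 16.6 for the Tag_55 family, 14.95 for the 1-substitution tags of Tag_3 and 17.4 for those of Tag_55. With all tags up to 2 substitutions apart Tag_55 was 32.2. Among all tags, 765 were past the fold higher and 1007 lower. At a minimum of 2 counts 5106 were lower, at 50 counts 400 were higher and 236 lower, with 1 count in place of 0 1450 were higher, under the study's fold and P rule applied to all 15467 tags with at least 2 counts 1037 were higher and 4169 lower, and under TMM 1573 were higher and 630 lower. TMM moved the median log2 ratio of all tags from 0.02 to 1.12 and the share of higher among all calls from 43.2% to 71.4%. This share was 13.03% at 2 counts, 62.9% at 50 counts, 59.0% with 1 count in place of 0 and 19.9% under the study's rule. Members past the fold higher were 44 of 106 tested at 2 counts (4.95% of all tags), 36 of 36 at 50 counts (36.7%), 54 of 55 with 1 count in place of 0 (40.1%), 48 of 106 under the study's rule (6.70%) and 52 of 55 under TMM (43.5%), with none lower. Running the study's rule on the 5237 tags counted in both libraries, which gave 420 higher and 1570 lower and 36 of 44 members higher, counting tags with 1 base lost or gained and centring ratios on tags of like G and C content were chosen after seeing the data. Lost or gained bases added 63 counts to Tag_3 and 2 to Tag_55 in Vip–Sel, with 0 in Vip–Unsel, and the centring gave 16.7 for Tag_3 and 67.4 for Tag_55. The cause of these shifts was not tested. No paired analysis was possible because each strain had 1 library. Depth limits the ratio of Tag_55, which rests on 7 counts in Vip–Unsel, and more so the members with 1 to 3 counts or 0 there. Leaving out a replicate was not possible.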
